A study of Homo sapiens with 20 samples.

Results

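Prostaglandin genes were followed in MDA-MB-468 cells, a triple-negative breast cancer line of epithelial origin, during EMT (epithelial-mesenchymal transition) induced by epidermal growth factor (EGF). The 9 genes were chosen by name, as enzymes that make prostaglandins, receptors that bind them, and an enzyme that breaks them down, together with a lipoxygenase, out of 60271 genes in the deposited count tables. The cells came from a single line and, by the general protocol of the paper, were serum-starved for 24 h before EGF, added here at 50 ng/mL. Whether the time without serum was the same in every group is not stated. The cells were exposed to EGF for 12, 24, 48 or 72 h or left untreated as control, and all groups were seeded and harvested at the same time. Each of the 5 groups had 4 biological replicates, so that 20 RNA-seq libraries were analyzed, and p values measure the spread between samples of this line.

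Prostaglandins are made from arachidonic acid that phospholipases release from membranes. The cyclooxygenases PTGS1 (COX-1) and PTGS2 (COX-2) convert it to prostaglandin H2, and the prostaglandin E synthases PTGES, PTGES2 and PTGES3 can turn this into prostaglandin E2 (PGE2). PGE2 acts on the EP receptors, of which EP2 (PTGER2) and EP4 (PTGER4) raise cyclic AMP, and HPGD (hydroxyprostaglandin dehydrogenase) starts its breakdown inside cells. In epithelial cancers, COX-2 and PGE2 are known for their roles in inflammation, growth and migration. ALOX15B is a lipoxygenase that oxidizes arachidonic acid by a separate route.

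Expression is given as CPM, the counts scaled to a common total after TMM normalization. The libraries held 15611961 to 25856953 counts each. Intervals and limits from counts cover counting error only. Differences between groups are given on the log2 scale as fitted by edgeR, with their standard error (SE). An adjusted p is the Benjamini-Hochberg value of the quasi-likelihood test in edgeR over the 16522 genes that passed the filter on low counts, and a gene was called higher or lower when it was under 0.05. Of the 9 genes, 6 passed the filter. The epithelial genes EPCAM, CDH1, KRT8, KRT18 and KRT19 had at least 83.0 CPM in every library, as the labelled cell type has them. Of the receptors that triple-negative tumours lack by definition, PGR had 0 counts, whereas ESR1 had 1.91 to 6.53 CPM and ERBB2 had 7.79 to 24.6 CPM. Of the leukocyte, endothelial and fibroblast markers, PTPRC, CD3E, CDH5, COL1A2, DCN and LUM had at most 8 counts in any library, while CD14 reached 6.70 CPM, PECAM1 5.17 CPM and COL1A1 14.8 CPM. CD14, a monocyte gene, had a group mean of 2.98 CPM in the control, 1.11 CPM at 12 h, 2.32 CPM at 24 h, 5.44 CPM at 48 h and 4.36 CPM at 72 h. Like PTGES, it was lowest at 12 h and highest at 48 h. The summed level of the 4 endothelial markers ranged from 2.02 CPM at 12 h to 5.31 CPM at 48 h, a range set by PECAM1 (0.374 and 4.20 CPM). VWF was also higher at 48 h (0.104 and 0.265 CPM), while KDR (1.41 and 0.842 CPM) and CDH5 (0.132 and 0 CPM) were higher at 12 h. The sum of the 5 fibroblast markers ranged from 6.23 CPM without EGF to 14.1 CPM after 72 h, of which COL1A1 made 6.18 and 13.9 CPM. The part of these markers in the results was not tested. The share of counts from mitochondrial genes had a group mean of 9.41% at 12 h and 15% at 72 h.

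The genes differed widely in level. Per kilobase of exon, the mean over all libraries was 136 CPM for PTGES3, 12.6 for PTGES and 2.60 for PTGES2. It was 1.54 CPM per kilobase for PTGER4 and 0.654 for PTGER2. The lowest values above 0 were those of PTGS1 at 0.0524, ALOX15B at 0.0409 and HPGD at 0.00136 CPM per kilobase, and PTGS2 had no count at all. The cells thus held abundant RNA of PTGES3, less of PTGES, and lower, measurable RNA of PTGES2, EP2 and EP4. Very little RNA of the cyclooxygenases and of HPGD was found.

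**Figure D1:**
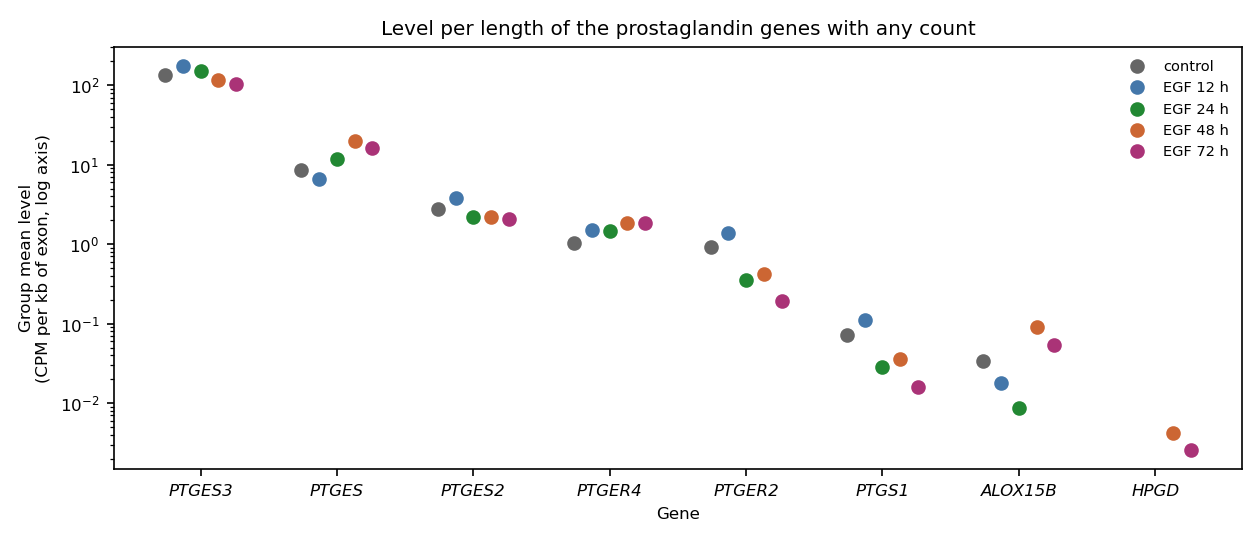
Group means of expression per kilobase of exon (CPM per kilobase, log axis) for the 8 genes with at least 1 count, ordered by level, with 1 point for each of the 5 groups. PTGES3 lies highest at a mean of 136 and HPGD lowest at 0.00136, groups at 0 are not drawn, and PTGS2 is left out because all 20 libraries had 0 counts.

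The start regions of 4 genes are shown because their RNA followed different courses. PTGS2 was never detected, PTGES and PTGER4 were higher than in the control at 24, 48 and 72 h, and PTGER2 was lower at these times. Each sequence holds the 250 bases before the transcription start given by RefSeq on GRCh38.p14, written 5′ to 3′ on the strand of the gene. Capitals mark matches, on either strand, of the TATA box searched as TATAAA, the box searched as CCAAT, and the GC box searched as GGGCGG.
PTGS2: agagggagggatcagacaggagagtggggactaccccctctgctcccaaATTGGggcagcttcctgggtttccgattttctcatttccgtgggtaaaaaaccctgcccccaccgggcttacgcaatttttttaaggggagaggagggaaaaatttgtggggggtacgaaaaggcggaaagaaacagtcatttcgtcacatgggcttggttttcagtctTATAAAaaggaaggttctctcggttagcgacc
PTGES: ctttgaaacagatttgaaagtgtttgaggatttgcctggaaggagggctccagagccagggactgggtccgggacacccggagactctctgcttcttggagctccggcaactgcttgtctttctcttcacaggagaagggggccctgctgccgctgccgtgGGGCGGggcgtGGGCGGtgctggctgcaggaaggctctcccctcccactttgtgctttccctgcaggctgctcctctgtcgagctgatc
PTGER2: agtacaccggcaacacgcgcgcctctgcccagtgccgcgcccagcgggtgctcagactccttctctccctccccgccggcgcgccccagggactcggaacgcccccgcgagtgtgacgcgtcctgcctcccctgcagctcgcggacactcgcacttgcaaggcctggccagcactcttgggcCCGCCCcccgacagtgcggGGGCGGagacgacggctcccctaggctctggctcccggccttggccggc
PTGER4: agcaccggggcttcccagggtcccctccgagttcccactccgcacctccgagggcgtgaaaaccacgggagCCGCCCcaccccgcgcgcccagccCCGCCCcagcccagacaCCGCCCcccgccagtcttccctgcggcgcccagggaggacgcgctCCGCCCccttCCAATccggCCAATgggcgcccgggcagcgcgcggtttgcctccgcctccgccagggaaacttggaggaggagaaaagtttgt
These regions lie at chr1:186680424-186680673 on the minus strand for PTGS2, at chr9:129753043-129753292 on the minus strand for PTGES, at chr14:52314062-52314311 on the plus strand for PTGER2 and at chr5:40679665-40679914 on the plus strand for PTGER4. RefSeq start regions were matched for 8 of the 9 genes, all but ALOX15B.

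The PTGS2 region contained TATAAA, with its first base 32 bases before the start, and the other 3 did not. All windows were searched on both strands from 250 bases before to 50 bases after the start, and a match describes letters only. TATAAA was found in 11.5% of 35116 such RefSeq windows. GGGCGG, present in 45% of them, occurred 2 times in PTGES, 2 times in PTGER2 and 4 times in PTGER4, and not in PTGS2. CCAAT, present in 34.6%, occurred 2 times in PTGER4, and in PTGS2 once on each strand, where the plus strand match spans the start and is not capitalized. TGACG, a shortened cyclic AMP response element present in 24.6%, occurred in PTGS2 and PTGER2, whereas the whole element TGACGTCA, which overlaps it and is present in 1.85%, was in neither. AP-1 letters, searched as TGACTCA and in the other form of this element as TGAGTCA, were in 4.95% of windows and the E-box letters CACGTG in 7.26%, and both were absent from all 4 regions. The 250 bases contained 9 CpG pairs in PTGS2, 9 in PTGES, 28 in PTGER2 and 26 in PTGER4.

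PTGS2 (ENSG00000073756, chromosome 1 from 186671791 to 186680427 on GRCh38, 9 merged exons) encodes the inducible cyclooxygenase. It had 0 counts in all 20 libraries, with and without EGF. A count of 0 allows up to 3 counts, which is 0.116 to 0.192 CPM in a single library and 0.00744 CPM over the 403058855 counts of all libraries. PTGS2 RNA was therefore not detectable at this depth at any of the 5 times sampled. Times before 12 h were not sampled.

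PTGS1 (ENSG00000095303, chromosome 9 from 122370530 to 122395703, 13 merged exons), the cyclooxygenase that many tissues express without stimulation, was rare. The control libraries had 10, 8, 9 and 9 counts, and those after 12 h of EGF had 14, 12, 12 and 11 counts. At 24 h, the counts were 3, 2, 4 and 3. They were 8, 2, 4 and 3 at 48 h, and 3, 0, 0 and 4 at 72 h. All libraries at 24 and 72 h were below all controls, and at 48 h 1 library reached the lowest control count. The mean was 0.414 ± 0.0709 CPM (SD, n = 4) without EGF, 0.166 ± 0.0624 CPM at 24 h and 0.0928 ± 0.121 CPM at 72 h. PTGS1 was called lower at 24 h (log2 difference -1.30 ± 0.53 SE, adjusted p = 0.0365) and at 72 h (log2 difference -2.11 ± 0.58 SE, adjusted p = 0.00311). At 12 h the log2 difference was 0.62 and at 48 h -1.03, and neither passed (adjusted p = 0.193 and 0.0910). The gene passed the filter on low counts only through libraries at 12 h together with control replicate 1. Its contrasts with 12 h, also that with the control, are therefore partly fixed by the filter. Those of later times with 12 h are given only in the counts of genes called. Its falls against the control are open to the same limit in part. The call at 24 h was lost in the DESeq2 Wald test, without the filter, and without control replicate 1 (-1.20), 3 (-1.34) or 4 (-1.28) or EGF 24 h replicate 1 (-1.26), 2 (-1.17) or 4 (-1.25). Without EGF 48 h replicate 1 the fall at 48 h passed (-1.61, adjusted p = 0.0190), and without EGF 72 h replicate 4 the fall at 72 h was -2.95.

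PTGES (ENSG00000148344, chromosome 9 from 129738331 to 129753047, 4 merged exons), the inducible membrane-bound synthase of PGE2, first fell slightly and then rose above the control. It was at 14.3, 18.9, 13.8 and 17.3 CPM in the 4 controls and at 13.3, 12.4, 10.8 and 13.8 CPM after 12 h of EGF. At 24 h it was at 24.3, 22.1, 23.3 and 19.9 CPM. At 48 h it reached 40.2, 42.4, 33.5 and 36.7 CPM, and at 72 h it was at 31.1, 27.8, 32.9 and 30.4 CPM. All libraries at 12 h lay below all controls, by a small margin, and all libraries at 24, 48 and 72 h lay above them. The control mean of 16.1 ± 2.44 CPM fell to 12.6 ± 1.30 CPM after 12 h (log2 difference -0.35 ± 0.11 SE, adjusted p = 0.00561). With scaling by library size only, the fall at 12 h was -0.64. PTGES then stood at 1.39 times the control at 24 h (log2 difference 0.48 ± 0.10 SE, adjusted p = 4.11e-04). Its level was 2.37 times the control at 48 h (log2 difference 1.24 ± 0.10 SE, adjusted p = 6.32e-10) and 1.90 times the control at 72 h (log2 difference 0.93 ± 0.10 SE, adjusted p = 4.47e-08). From lowest to highest, the order was 12 h, control, 24 h, 72 h and 48 h, and each neighbour in it differed by the test. The narrowest step, from 48 to 72 h, was a log2 difference of -0.32 (adjusted p = 0.0152), which no longer passed without EGF 48 h replicate 2 (-0.26) or EGF 72 h replicate 2 (-0.28).

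PTGES2 (ENSG00000148334, chromosome 9 from 128120693 to 128128462, 7 merged exons), a second membrane-associated PGE synthase, had its highest level at 12 h. It was at 7.53, 10.8, 6.57 and 8.51 CPM in the controls and at 11.9, 12.9, 9.89 and 11.6 CPM at 12 h. At 24 h the libraries had 7.07, 7.46, 5.13 and 7.08 CPM. At 48 h they had 7.59, 6.90, 5.96 and 5.89 CPM, and at 72 h 6.82, 5.69, 5.70 and 7.22 CPM. At 12 h 3 of 4 libraries exceeded all controls, and at the later times the groups overlapped the control. The rise at 12 h had a log2 difference of 0.47 ± 0.14 SE (adjusted p = 0.00489). This call was lost under library size scaling (0.18) or upper quartile scaling (0.30), and with gene-wise factors taken from the ratio of deposited normalized value to count (0.28). All 4 libraries at 24 h were below all at 12 h (log2 difference -0.78, adjusted p = 7.93e-05). Against the control, the log2 difference was -0.32 at 24 h and -0.35 at 48 h, which did not pass (adjusted p = 0.0659 and 0.0521). The difference at 24 h passed under library size scaling (-0.46) and upper quartile scaling (-0.37), and that at 48 h with DESeq2 size factors (-0.35). Without control replicate 3, both passed (-0.42 and -0.45), and the difference at 48 h also passed without control replicate 1 (-0.39), EGF 24 h replicate 3 (-0.35) or EGF 48 h replicate 1 (-0.42). At 72 h it was -0.39, which passed (adjusted p = 0.0230, 2 of 4 libraries below all controls), but not without control replicate 2 (-0.24), EGF 72 h replicate 2 (-0.34) or EGF 72 h replicate 3 (-0.34). With the gene-wise factors, the fall at 72 h was -1.31. No difference between 24, 48 and 72 h passed.

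PTGES3 (ENSG00000110958, chromosome 12 from 56663341 to 56688408, 9 merged exons) encodes p23, a cytosolic PGE synthase that is also a cochaperone of HSP90. It was at 453, 521, 439 and 424 CPM in the controls and at 562, 583, 622 and 593 CPM at 12 h. At 24 h the values were 534, 488, 556 and 496 CPM. At 48 h they were 416, 337, 402 and 430 CPM, and at 72 h 327, 359, 355 and 352 CPM. All libraries at 12 h were above, and all at 72 h below, every control. The mean rose from 459 ± 43.1 CPM to 590 ± 25 CPM at 12 h, 1.28-fold (log2 difference 0.36 ± 0.074 SE, adjusted p = 1.44e-04). This call was lost under library size scaling (0.076), and upper quartile scaling left 0.20. At 72 h the mean was 348 ± 14.6 CPM (log2 difference -0.40 ± 0.074 SE, adjusted p = 5.98e-05). The differences between these times were small. The rise at 24 h (log2 difference 0.18, adjusted p = 0.0459, 2 of 4 libraries above all controls) and the fall at 48 h (log2 difference -0.21, adjusted p = 0.0215, 3 of 4 libraries below all controls) were each lost under several settings. The rise at 24 h was lost under library size scaling (0.032) and upper quartile scaling (0.13), without the filter (0.17) and in the 8 libraries compared (0.17), and the gene-wise factors gave 0.27. The fall at 48 h was lost with at least 10 counts in every library (-0.18), in the 8 libraries compared (-0.22) and with the gene-wise factors (-0.15). Without control replicate 1 (0.17), 3 (0.15) or 4 (0.14), EGF 12 h replicate 2 (0.18) or 4 (0.18), EGF 24 h replicate 1 (0.16) or 3 (0.14), or EGF 72 h replicate 1 (0.17) or 4 (0.18), the rise at 24 h did not pass. The fall at 48 h did not pass without control replicate 2 (-0.15) or EGF 48 h replicate 2 (-0.14). Between 12 and 24 h PTGES3 fell by 0.19 on the log2 scale (adjusted p = 0.0376), a call lost without EGF 12 h replicate 2, 3 or 4 (-0.19, -0.16 and -0.19) or EGF 24 h replicate 2 or 4 (-0.16 and -0.17). It was also lost under library size scaling (-0.044), upper quartile scaling (-0.069), with at least 10 counts in every library (-0.15) and with the gene-wise factors (-0.089). Between 24 and 48 h it fell by 0.39 (adjusted p = 1.39e-04), and by 0.23 under library size scaling. The step from 48 to 72 h, -0.19, did not pass (adjusted p = 0.0533), but did without control replicate 2 (-0.19), control replicate 3 (-0.19) or EGF 48 h replicate 2 (-0.26), and under library size scaling (-0.28) and upper quartile scaling (-0.23). Reads of PTGES3 could be shared with its processed pseudogenes, of which PTGES3P1 had 2 to 51 counts, against 5508 to 12405 counts of PTGES3.

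**Figure D2:**
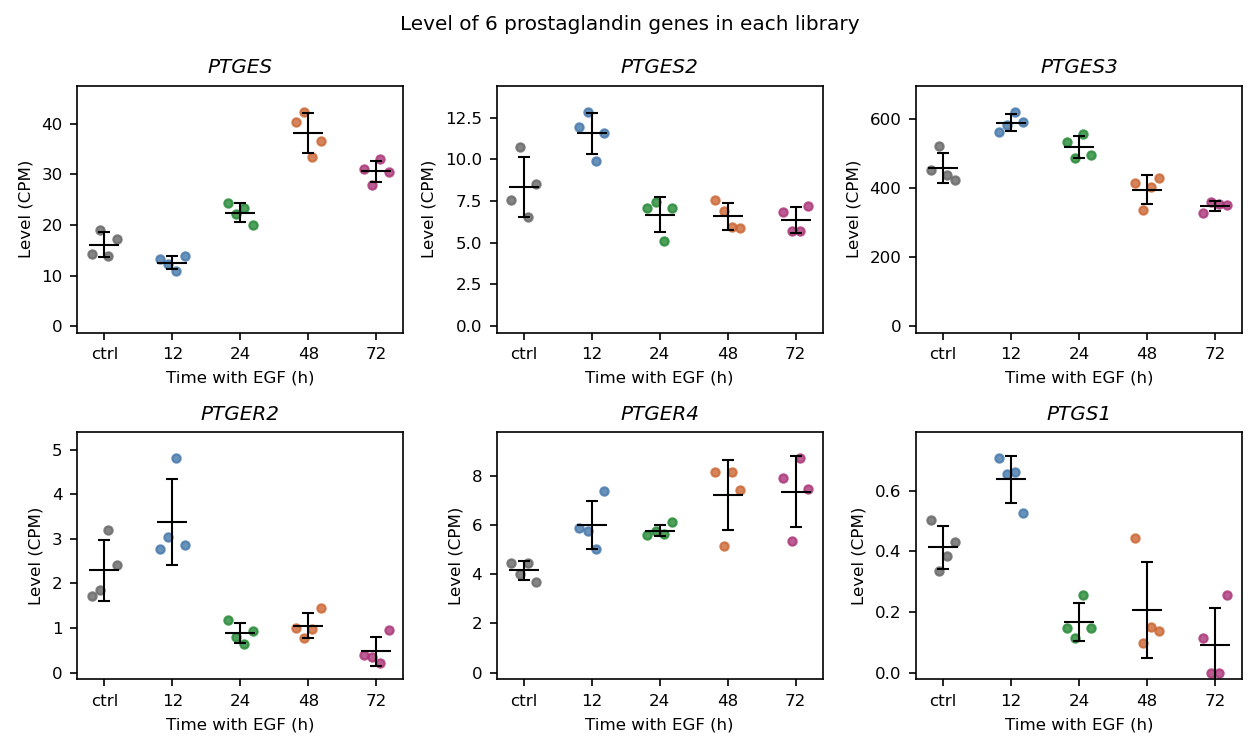
Expression in CPM (linear axes, each from 0) of the 6 genes that passed the filter on low counts, in the control (ctrl) and at each of the 4 times with EGF. Points are the 4 libraries of a group, and bars give the mean and SD. PTGES peaks at 38.2 CPM at 48 h, PTGES2, PTGES3, PTGER2 and PTGS1 have their highest mean at 12 h, and all PTGER4 libraries with EGF lie above the controls.

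PTGER2 (ENSG00000125384, chromosome 14 from 52314305 to 52328606, 2 merged exons), the EP2 receptor, was lower from 24 h on. It was at 1.71, 1.85, 3.2 and 2.40 CPM in the controls and at 2.78, 3.05, 4.81 and 2.87 CPM at 12 h. At 24 h the values were 1.19, 0.791, 0.641 and 0.927 CPM. At 48 h they were 0.997, 0.782, 0.988 and 1.45 CPM, and at 72 h 0.385, 0.341, 0.223 and 0.958 CPM. Every library at 24, 48 and 72 h was below every control, whereas at 12 h 1 of 4 was above them all. The fall was 0.392-fold of the control at 24 h (log2 difference -1.35 ± 0.30 SE, adjusted p = 4.88e-04) and 0.462-fold at 48 h (log2 difference -1.11 ± 0.29 SE, adjusted p = 0.00288). At 72 h it was 0.203-fold (log2 difference -2.30 ± 0.33 SE, adjusted p = 2.24e-06). The difference at 12 h, 0.55 on the log2 scale, did not pass (adjusted p = 0.0670), but did without control replicate 3 (0.76, adjusted p = 0.0185), without EGF 72 h replicate 4 (0.56) or in the 8 libraries compared (0.56). In order, 12 h and control did not differ, nor did 48 and 24 h, and 72 h was lower than 48 h (log2 difference -1.19, adjusted p = 0.0121) and 24 h (log2 difference -0.95, adjusted p = 0.0448). The difference between 72 and 24 h did not pass under library size scaling (-0.89), in the DESeq2 Wald test (-0.94), or without control replicate 4 (-0.95), EGF 12 h replicate 2 (-0.95), EGF 24 h replicate 1 (-0.78), 2 (-1.01) or 4 (-0.94), EGF 48 h replicate 1 (-0.95), or EGF 72 h replicate 1 (-0.84), 2 (-0.84) or 3 (-0.74). Without EGF 72 h replicate 4 it was -1.46. The libraries at 72 h had 4 to 15 counts.

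PTGER4 (ENSG00000171522, chromosome 5 from 40679498 to 40693735, 4 merged exons), the EP4 receptor, moved the other way at 24, 48 and 72 h. It was at 4.47, 3.99, 4.44 and 3.70 CPM in the controls and at 5.86, 5.77, 5.03 and 7.36 CPM at 12 h. At 24 h it was at 5.59, 5.76, 5.64 and 6.10 CPM. At 48 h it was at 8.15, 5.14, 8.17 and 7.43 CPM, and at 72 h at 7.90, 5.35, 8.71 and 7.47 CPM. All 16 libraries with EGF were above all 4 controls. The log2 fold change was 0.54 at 12 h (SE 0.16, adjusted p = 0.00428) and 0.48 at 24 h (SE 0.16, adjusted p = 0.0127). It was 0.80 at 48 h (SE 0.15, adjusted p = 1.75e-04) and 0.83 at 72 h (SE 0.16, adjusted p = 6.89e-05). The calls at 12 and 24 h were lost under library size scaling (0.25 and 0.33), and with the gene-wise factors the values were larger, from 0.78 at 24 h to 1.48 at 72 h. No difference between EGF times passed, the 95% interval of that between 72 and 12 h reaching from -0.023 to 0.61 on the log2 scale. Of the 6 differences between EGF times, 4 depended on the setting. Under library size scaling, the step from 12 to 48 h was 0.56, against 0.26 under TMM, and it passed, as did those from 12 to 72 h (0.50), 24 to 48 h (0.48) and 24 to 72 h (0.42). The same 4 passed under upper quartile scaling (0.44, 0.43, 0.38 and 0.38) and with at least 10 counts in every library (0.34, 0.38, 0.36 and 0.40). The step from 24 to 72 h also passed in the 8 libraries compared (0.36). Without EGF 12 h replicate 4, the steps from 12 to 48 h (0.37) and from 12 to 72 h (0.40) passed. Without EGF 48 h replicate 2, those from 12 to 48 h (0.39), from 24 to 48 h (0.45) and from 24 to 72 h (0.35) passed. Without EGF 72 h replicate 2, those from 12 to 72 h (0.41) and from 24 to 72 h (0.47) passed. Per kilobase, PTGER4 and PTGER2 had 1.05 and 0.926 CPM without EGF, against 1.86 and 0.193 CPM after 72 h.

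**Figure D3:**
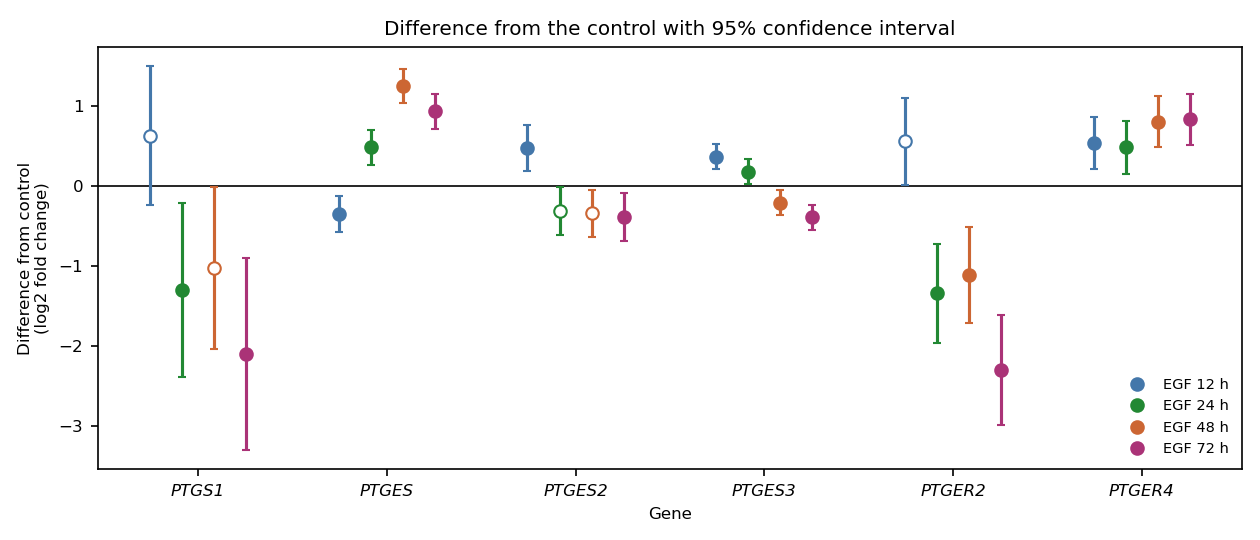
Log2 fold change against the control with its 95% confidence interval for the 6 genes that passed the filter, at each of the 4 times. Filled points were called at an adjusted p under 0.05 and open points were not, PTGES turns from -0.35 at 12 h to 1.24 at 48 h, and PTGER2 falls to -2.30 at 72 h while PTGER4 stays above 0.

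HPGD (ENSG00000164120, chromosome 4 from 174490177 to 174523154, 8 merged exons), which starts the inactivation of PGE2, was nearly absent. It had 0 counts in the 12 libraries of the control, 12 h and 24 h groups. At 48 h it had 1, 0, 1 and 0 counts, and at 72 h 0, 1, 0 and 0 counts. No fold change is given, since all libraries were under the floor of 3 counts.

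ALOX15B (ENSG00000179593, chromosome 17 from 8039017 to 8049134, 13 merged exons), the second human 15-lipoxygenase, was also rare and stayed below the filter. Its counts were 1, 3, 2 and 3 in the controls, 0, 4, 0 and 0 at 12 h, and 0, 1, 0 and 1 at 24 h. At 48 h they were 5, 5, 9 and 5, and at 72 h 6, 2, 1 and 4. The 48 h libraries were above all controls, and those at 72 h overlapped the control. Summed over libraries, 24 counts at 48 h stood against 9 in the control, a ratio of 2.72 with an exact binomial 95% interval of 1.22 to 6.65. An exact two-sided permutation test of CPM, added after the data were seen, gave p = 0.0286 for 48 h against the control, the smallest that 4 against 4 libraries allow, and 0.114 after Benjamini-Hochberg adjustment over 4 times. In edgeR without the filter on low counts, the difference from the control at 48 h did not pass (adjusted p = 0.199). The differences of 48 h from 24 h (log2 difference 3.08 ± 0.91 SE, adjusted p = 0.00790) and from 12 h (log2 difference 2.22 ± 0.82 SE, adjusted p = 0.0260) passed. The other differences of ALOX15B between EGF times did not. The contrast of 48 and 24 h sets the highest group mean against the lowest, and the p values were not adjusted over contrasts.

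**Figure D4:**
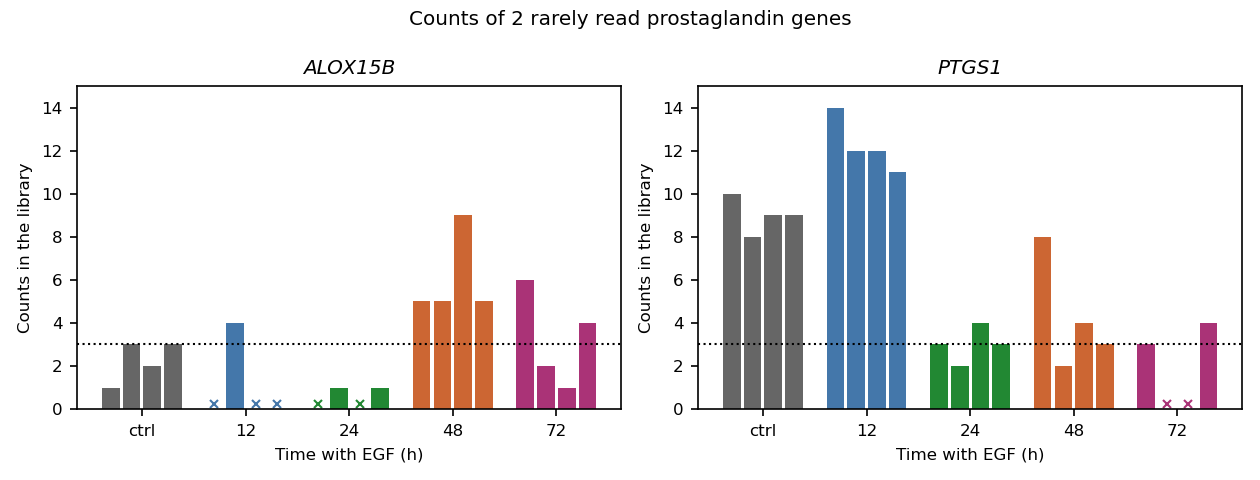
Counts in each of the 4 libraries per group for ALOX15B and PTGS1, with crosses for libraries at 0 and a dotted line at 3 counts, the floor used for bounds. ALOX15B reaches 5 to 9 counts at 48 h against 1 to 3 in the control, and PTGS1 drops from 8 to 10 counts in the control to 0 to 4 at 72 h.

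Counted over the 9 genes, 3 were called higher (PTGES2, PTGES3 and PTGER4) and 1 lower (PTGES) at 12 h, where 32.9% of all genes tested were called higher and 36.5% lower. At 24 h, 3 were higher (PTGES, PTGES3 and PTGER4) and 2 lower (PTGS1 and PTGER2), with 29.2% and 29.6% of all genes. At 48 h, 2 were higher (PTGES and PTGER4) and 2 lower (PTGES3 and PTGER2), with 24% and 21.8% of all genes. At 72 h, 2 were higher (PTGES and PTGER4) and 4 lower (PTGS1, PTGES2, PTGES3 and PTGER2), with 30.6% and 31% of all genes. With scaling by library size only, 0 of the 9 were called higher at 12 h. These comparisons share the same 4 control libraries. Between successive times, 1 gene was higher and 4 lower at 24 h than at 12 h (27.9% and 25.9% of all genes), 1 higher and 1 lower at 48 h than at 24 h (25.9% and 24.3%), and 0 higher and 2 lower at 72 h than at 48 h (17.9% and 17.9%). With 9 genes, the shares called were read only as a description beside this background. The median log2 fold change of the 6 genes tested was 0.50, -0.07, -0.28 and -0.40 at 12, 24, 48 and 72 h, next to -0.05, -0.01, 0.01 and -0.01 for all genes tested. The 6 include PTGS1 (0.62 at 12 h), whose differences are partly fixed by the filter.

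Over the 20 libraries, PTGES and PTGER2 ran in opposite directions (Pearson's r of -0.808 on log2(CPM + 1)), and PTGS1 and PTGER2 together (r of 0.867). PTGS1 had only 0 to 14 counts per library and passed the filter through libraries at 12 h and a control library. Its r is thus partly fixed by the filter. The correlations describe libraries that share groups and carry no p. Among genes with a mean of at least 5 CPM, those most like PTGES were C1QTNF6 (r = 0.980), ALDH3B1 (r = 0.970) and DDB2 (r = 0.961). For PTGES2 they were LMNB2 (r = 0.942), PFKL (r = 0.940) and ITPA (r = 0.937), and for PTGES3 PSMB2 (r = 0.958) and POLR3C (r = 0.953). For PTGER2 they were TGFBR3 (r = 0.937), MFSD14A (r = 0.925) and YTHDF2 (r = 0.920), and for PTGER4 SOD2 (r = 0.853), LIMA1 (r = 0.835) and RRAS2 (r = 0.821). C1QTNF6 had the same course as PTGES, with means of 8.58 CPM without EGF, 7 CPM after 12 h and 20.4 CPM after 48 h.

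The surrounding pathway was described with a list of 45 genes, and 31 of them had enough counts to be tested. After 12 h, 13 were called higher and 8 lower, where 32.9% and 36.5% of all genes tested were called. The numbers were 17 and 6 at 24 h (29.2% and 29.6% of all genes), 15 and 4 at 48 h (24% and 21.8%), and 18 and 5 at 72 h (30.6% and 31%). The median log2 fold change of the 31 genes was 0.03, 0.41, 0.51 and 0.89 at the 4 times, next to -0.05, -0.01, 0.01 and -0.01 for all genes tested. Some of the 31, among them ALOX5AP, ALOXE3, PLA2G4E, PLA2G10 and PTGFR, passed the filter on low counts only through libraries with EGF. Their higher values with EGF are thus partly fixed by the filter and enter these counts and medians. The list was also chosen with earlier results of these data known. Of the 45 genes, HPGDS, PTGDR and CYSLTR2 had 0 counts in all libraries.

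RNA of the transporters SLCO2A1 and ABCC4 changed most among the 6 genes of transport and breakdown. SLCO2A1, the transporter that takes prostaglandins up into cells, had a mean of 4.23 ± 0.634 CPM (SD, n = 4) without EGF and of 52.8 ± 2.36 CPM after 12 h, a rise (log2 difference 3.64 ± 0.14 SE, adjusted p = 2.37e-16). The mean declined to 37.1 ± 6.92 CPM at 24 h, 11.8 ± 2.25 CPM at 48 h and 14.1 ± 1.19 CPM at 72 h, still above all controls. ABCC4 (MRP4), an efflux pump that exports PGE2 among other substrates, followed the same order of levels, with 5.88 ± 1.63 CPM without EGF and 38.7 ± 1.20 CPM after 12 h (log2 difference 2.72 ± 0.15 SE, adjusted p = 1.24e-13). Later means were 22.9 CPM at 24 h, 8.17 CPM at 48 h and 12.8 CPM at 72 h. Both genes were thus highest at the time when PTGES was lowest. The reductases in this group of genes moved less. PTGR1 was called higher at 24, 48 and 72 h (log2 fold changes 0.19, 0.51 and 0.24), PTGR2 lower at 12 h (-0.71) and CBR3 higher at 24 and 72 h (0.41 and 0.63). PTGR3 was called at all 4 times with log2 fold changes of -0.35, 0.19, -0.20 and -0.37.

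Among the other prostanoid synthases, AKR1B1, an aldose reductase that can form prostaglandin F, rose at all times, from 119 ± 9.68 CPM to a highest mean of 314 ± 24.5 CPM at 48 h (log2 difference 1.40 ± 0.074 SE, adjusted p = 1.94e-13). TBXAS1, which makes thromboxane, increased from 0.586 ± 0.134 CPM to reach 3.97 ± 0.174 CPM after 72 h (log2 difference 2.76 ± 0.20 SE, adjusted p = 2.51e-11). PTGIS, which makes prostacyclin, fell from 21.5 ± 0.848 CPM to 6.35 ± 0.480 CPM at 24 h (log2 difference -1.76 ± 0.097 SE, adjusted p = 1.72e-13). PTGIS was closest to the control at 48 h, at 17 CPM (log2 fold change -0.34), and lower again at 72 h (6.34 CPM). PRXL2B was higher at 12 h (0.71) and lower at 48 and 72 h (-0.64 and -0.62). AKR1C3 fell from 3.74 to 0.959 CPM at 12 h (log2 fold change -1.95) and was nearer the control at 24 h (-0.37), and CBR1 differed at 24 h only by -0.17.

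Of the 7 other receptors, 3 passed the filter. The thromboxane receptor TBXA2R was higher at all times, with 0.848 ± 0.167 CPM without EGF and 2.42 ± 0.237 CPM after 72 h (log2 difference 1.5 ± 0.22 SE, adjusted p = 2.96e-06). PTGER3 and PTGFR had means under 1 CPM, and both are named here after their values were seen. PTGER3, the EP3 receptor, fell at all times, from 33 to 54 counts per control library to 3 to 6 counts at 48 h (log2 difference -3.15 ± 0.32 SE, adjusted p = 2.49e-08). PTGFR, the receptor of prostaglandin F, had 0 to 6 counts per control library and 6 to 17 counts at 24 h, where it was called higher (log2 difference 2.27 ± 0.61 SE, adjusted p = 0.00275). It was not called at the other times, its log2 difference being 1.21 after 12 h, 1.37 after 48 h and 1.26 after 72 h. PTGFR passed the filter only through libraries with EGF, so its higher values there are partly fixed by the filter. PTGER1, the EP1 receptor, did not pass the filter. Both EP receptors that passed beside PTGER4, PTGER2 and PTGER3, were thus lower at 24, 48 and 72 h.

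Upstream of the cyclooxygenases, MGLL, a lipase that can release arachidonate through glycerol esters, increased from 24.4 ± 3.97 CPM to reach 123 ± 3.65 CPM after 12 h (log2 difference 2.33 ± 0.087 SE, adjusted p = 1.00e-16). ACSL4, which couples arachidonate to coenzyme A, increased from 78.9 ± 10.6 CPM to reach 159 ± 10.3 CPM after 24 h (log2 difference 1.01 ± 0.10 SE, adjusted p = 7.08e-09). MGLL and ACSL4 were called higher at all 4 times. Of the phospholipases, PLA2G4C was higher at 12, 48 and 72 h (log2 fold changes 0.67, 1.54 and 1.84), and PLA2G6 was lower at 12 h and higher at 48 h (-1.41 and 0.85). PLA2G4A, the cytosolic phospholipase best known for arachidonate release, had at most 1 count per library.

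Among lipoxygenase and leukotriene genes, ALOXE3, an epidermal lipoxygenase, increased from a control mean of 0.213 ± 0.123 CPM to 10.1 ± 0.626 CPM after 72 h (log2 difference 5.51 ± 0.22 SE, adjusted p = 3.25e-16). ALOXE3 had 1 to 8 counts per control library and passed the filter only through libraries with EGF. Its higher values there are thus partly fixed by the filter. ALOX5, which starts leukotriene synthesis, had 7.47 ± 0.733 CPM without EGF and 23.7 ± 2.37 CPM after 48 h, a rise (log2 difference 1.67 ± 0.096 SE, adjusted p = 8.67e-13). ALOX5 did not pass at 12 or 24 h (adjusted p = 0.551 and 0.438). LTA4H was higher at 12 and 24 h (0.29 and 0.48), and the leukotriene receptor LTB4R was higher at 24, 48 and 72 h (0.86, 0.88 and 1.06). CYSLTR1 was lower at 12 h (-0.94), where 1 of 4 libraries lay below all controls (1.60 to 5.63 CPM). ALOX5 and ALOX15B both had their highest mean at 48 h.

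**Figure D5:**
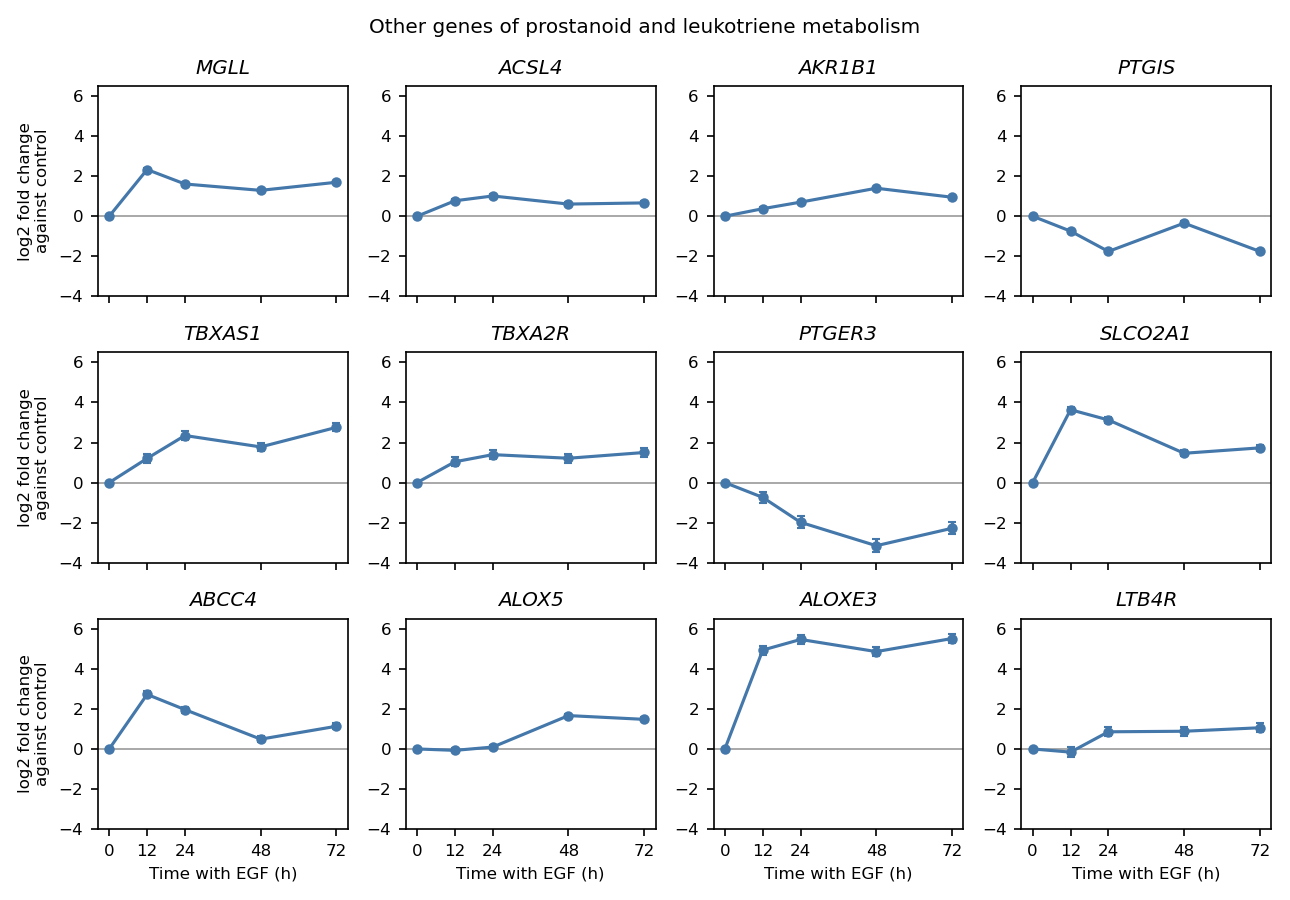
Log2 fold change against the control over time (h with EGF, control set to 0, bars give the standard error) for 12 other genes of prostanoid and leukotriene metabolism. SLCO2A1 (3.64) and ABCC4 (2.72) peak at 12 h, ALOX5 rises at 48 h (1.67), ALOXE3 stays near 5 at all times, and PTGIS and PTGER3 stay below 0.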

How the data were processed

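RNA of MDA-MB-468 cells was sequenced by the authors as 75-base single-end reads from Lexogen Corall mRNA libraries on an Illumina NS500. The authors deposited 10 tables, 1 per comparison, each with estimated counts rounded to whole numbers for 60271 genes. The counts were identical in all tables, so 9 were not used here. The tables also hold normalized values, a score on the scale of counts which the authors deposited beside them, and the authors' fold changes and p values, which were not used. The submitters' notes name hg38 and DESeq2. The aligner, counter, annotation and handling of molecular identifiers are not given in the sources used here, so PCR duplicates may be counted and strand may have been ignored.

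The members and lists were chosen with earlier results of these data known. Differential expression was tested in R 4.3.3 with limma 3.58.1 and edgeR 4.0.16 (filterByExpr, TMM, 1 robust quasi-likelihood model with a mean for each of 5 groups, Benjamini-Hochberg threshold 0.05), after a test on simulated data. Named were all 9 genes, every listed pathway gene called against the control with a mean of at least 1 CPM, and the 3 genes most correlated with each member of at least 1 CPM. Some values under these rules are not reported here. Counts are given at 15611961 to 25856953 per library, and genes under about 1 CPM carry wide standard errors. Gene positions and exon lengths are from GENCODE 29. Exons of the 9 genes share no base with exons of other genes. The variance between replicates was 3.53 to 57.5 times the sampling noise over 30 pairs, so no pair of libraries agreed within sampling noise. Alternatives were 3 other scalings, 2 other filters, the DESeq2 1.42.0 Wald test, only the 8 libraries compared, a replicate block, leaving out each library, and, chosen after seeing the data, gene-wise factors, the ratio of the deposited normalized value to the count, where all libraries had 20 counts or more.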

Additional observations from a re-analysis of the deposited data

Results flagged for a closer look

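PTGES differed in direction between times under the same contrast, lower than the control at 12 h and higher later. The test between times gave a log2 difference of 0.83 for 24 against 12 h, 1.60 for 48 against 12 h and 1.28 for 72 against 12 h (edgeR adjusted p = 8.63e-07, 4.43e-12 and 3.19e-10). PTGES3 was called higher at 12 and 24 h and lower at 48 and 72 h. Its log2 difference was -0.57 for 48 against 12 h, -0.76 for 72 against 12 h, -0.39 for 48 against 24 h and -0.57 for 72 against 24 h. PTGES2 was called higher at 12 h and lower at 72 h, with a log2 difference of -0.86 between them.

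Chance exceeds Dixon's 95% limit in about 1 of 20 groups of normally distributed values. In 37 groups of 4 libraries with unequal values, single libraries stood apart in 5 by this limit. These were PTGS1 at 48 h in replicate 1 (0.443 CPM, 8 counts, others 0.0978 to 0.152 CPM), PTGES2 at 24 h in replicate 3 (5.13 CPM, others 7.07 to 7.46 CPM) and PTGER2 at 12 h in replicate 3 (4.81 CPM, others 2.78 to 3.05 CPM). The other 2 were single libraries among libraries at 0, HPGD at 72 h in replicate 2 (0.0569 CPM, 1 count) and ALOX15B at 12 h in replicate 2 (0.218 CPM, 4 counts). There any count exceeds the limit, so the rate by chance does not hold for counts near 0.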

How the results depend on the processing

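Of 60 log2 fold changes (6 genes, 10 comparisons), 55 kept their direction under all alternatives that gave a value, and 35 also kept their side of the threshold. None of the 5 that turned was called. These were PTGES2 48 against 24 h (0.12 by library size, 0.034 by upper quartiles, 0.0020 with at least 10 counts in every library, -0.14 to 0.020 without single libraries) and 72 against 48 h (-0.10 to 0.027 without single libraries), PTGER4 24 against 12 h (0.080, 0.057, and -0.14 to 0.054 without single libraries) and 72 against 48 h (-0.060, -0.0090, and -0.10 to 0.15 without single libraries), and PTGS1 48 against 24 h (-0.31 to 0.52 without single libraries, the only turn being without EGF 48 h replicate 1). The cause was not tested, except that scaling by library size shifted the median of all genes by -0.28 at 12 h and -0.14 at 24 h, by 0.14 for 24 against 12 h and by 0.15 for 48 against 24 h, and upper quartiles shifted it by -0.16 at 12 h and 0.12 for 24 against 12 h.

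The counts of genes called moved as follows. With library size only, 0 of the 9 genes were higher at 12 h and 1 at 24 h. Higher at 48 than at 24 h were 2 with library size only, upper quartiles, the DESeq2 Wald test, no filter and at least 10 counts. Lower at 24 h were 1 with the DESeq2 Wald test, no filter or only the 8 libraries compared, and 0 with at least 10 counts or the factors per gene. Lower at 48 h were 1 with the 8 libraries and 0 with at least 10 counts or the factors. Lower were 2 at 72 h, 1 at 24 against 12 h and 1 at 72 against 48 h with at least 10 counts or the factors. Both leave out PTGS1 and PTGER2, and PTGES3 lost its call at 24 against 12 h (-0.15 and -0.089) and at 48 h (-0.18 and -0.15). Of the pathway genes, the factors left 6, 8, 7 and 8 higher and 3, 1, 2 and 3 lower at the 4 times, and at least 10 counts left 5, 3, 2 and 3 lower. The 8 libraries left 11 higher and 3 lower at 24 h. Without single libraries, genes lower were 1 to 2 at 24 h, 1 to 4 at 48 h and 1 to 3 at 72 against 48 h, and genes higher at 48 against 24 h were 1 to 2.

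In 9 of the 10 pairs of groups, at least 1 correlation of same-numbered libraries was under 0.1, which cannot show that pairing was absent. Over all pairs of groups these correlations ranged from -0.374 to 0.568, and between control and 48 h they averaged 0.268. Between 12 and 48 h all 4 were over 0.1 (0.116 to 0.227), though only 2 of 4 libraries correlated best with their own number. Between control and 24 h and between 24 and 48 h 3 of 4 did, and between 72 h and the other groups 0 or 1 did. A replicate block moved 3 of the 60 calls, none of them between 12 and 48 h. These were PTGES2 at 24 h (-0.32) and 48 h (-0.33), which passed, and PTGES3 at 24 h (0.17), which did not. Depth limits PTGS1, PTGS2, HPGD and ALOX15B, which had at most 14 counts per library.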
